A study of Arabidopsis thaliana with 4 samples.

Results

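The loci of the *Arabidopsis* chloroplast genome were examined in leaf mRNA libraries of wild type (WT) and *ldl1 ldl2* plants. Members were all loci with an identifier starting with ATCG and an FPKM above 0 in at least 1 library. The tables held 133 such loci, 88 protein-coding, 8 for ribosomal RNA and 37 for transfer RNA. Of these, 87 were members, among 32633 loci in all: 79 protein-coding loci, the 8 ribosomal RNA loci and 0 transfer RNA loci. The members with the lowest values were the *ycf2* copies, which reached 0.224 FPKM in their highest library, and *ndhF*, which reached 0.386 FPKM, whereas the 46 loci left out were at 0 in every library. One of the members, *psbM* (ATCG00220), was so high and so uneven that it is described apart from the others.

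Leaves were taken from uninfected 3-week-old plants grown under 12 h of light and 12 h of darkness at 21 °C. Each genotype was measured in 2 libraries, which the study describes as biological replicates and which carry the numbers 1 and 2. WT was the Columbia-0 (Col-0) accession, and the double mutant, in the same background, came from a cross of the T-DNA insertion alleles *ldl1-1* (Salk_048276) and *ldl2-1* (Salk_135831). *LDL1* and *LDL2* encode LSD1-like histone demethylases, which act in the nucleus. The unit, FPKM, is the number of sequenced fragments scaled by transcript length and by the mapped fragments of the library. Values of 4 libraries are given in the order WT replicate 1, WT replicate 2, *ldl1 ldl2* replicate 1 and *ldl1 ldl2* replicate 2.

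The chloroplast genome of a plant encodes core subunits of the photosystems, the cytochrome b6f complex, ATP synthase, the NDH complex and Rubisco, and part of the machinery that transcribes and translates them. A bacterial-type RNA polymerase with chloroplast-encoded core subunits transcribes most photosynthesis genes with the help of nuclear-encoded sigma factors. A phage-type polymerase encoded in the nucleus transcribes the genes for those core subunits and some others. Chloroplast messengers carry no stable poly(A) tail, since polyadenylation marks them for decay, and mRNA libraries selected on poly(A) capture them poorly. The levels below therefore describe what such a library held, and whether they follow the amount of chloroplast RNA in the leaf was not tested.

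Several features of the libraries stood beside these values. The *LDL2* FPKM was 1.04, 0.944, 0.281 and 0.673, lower in both mutant libraries, whereas *LDL1* stood at 4.37, 5.0, 4.44 and 4.09, and a value over a whole gene does not show whether an insertion interrupts it. The leaf genes *RBCS1A*, *LHCB1.3* and *CA1* were at 1043 FPKM or more in every library, but they did not move together. *RBCS1A* (19500, 8135, 12665 and 9247 FPKM) and *CA1* (4843, 1043, 3668 and 1492 FPKM) were lower in both libraries numbered 2. *LHCB1.3* (18800, 28445, 22711 and 27034 FPKM) was higher in both. The flower gene *SEP3* was at 0, 4.46, 0.0969 and 3.13 FPKM, *AP1*, another flower gene, was above 0 only in WT replicate 2 (3.46 FPKM), and the root gene *PYK10* was at 0.161, 6.09, 1.03 and 3.15 FPKM. The seed gene *CRA1* did not exceed 0.13 FPKM. All 3 of the flower and root genes were highest in WT replicate 2. Of the 5 leaf, flower and root genes tested, limma called 4 between the replicate numbers, against 23.9% of all loci tested. *RBCS1A* and *CA1* were called lower and *SEP3* and *PYK10* higher in number 2 (limma, adjusted p from 1.3e-04 to 0.0488), whereas *LHCB1.3* was not called. The part of these genes in the results on the chloroplast loci was not tested. In bulk leaf RNA, fewer cells of a type and less RNA per cell cannot be told apart.

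The protein-coding chloroplast genes with the widest range of FPKM were among the shortest. Their coding sequences, from the RefSeq annotation of TAIR10.1, are shown because the highest and most uneven values of protein-coding loci fell on such genes. Start and stop codons are in capitals. *psbM* (positions 28707 to 28811, minus strand), *psbI* (7583 to 7693, plus strand), *psaI* (59247 to 59360, plus strand) and *psbJ* (63538 to 63660, minus strand) were members. *psbF* (63942 to 64061, minus strand), a neighbour of *psbJ* of like length, was listed at 0 in every library.
psbM: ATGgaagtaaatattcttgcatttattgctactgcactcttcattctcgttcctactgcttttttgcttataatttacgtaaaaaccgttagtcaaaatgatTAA
psbI: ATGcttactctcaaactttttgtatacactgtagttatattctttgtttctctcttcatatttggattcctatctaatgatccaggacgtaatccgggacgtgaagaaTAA
psaI: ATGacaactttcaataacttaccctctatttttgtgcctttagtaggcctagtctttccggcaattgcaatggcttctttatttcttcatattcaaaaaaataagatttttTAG
psbJ: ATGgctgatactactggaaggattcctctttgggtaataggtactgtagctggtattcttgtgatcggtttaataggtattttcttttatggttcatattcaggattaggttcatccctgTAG
psbF: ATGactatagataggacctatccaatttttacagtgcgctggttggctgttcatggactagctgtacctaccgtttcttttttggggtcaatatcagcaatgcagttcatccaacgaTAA

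The *psbM* gene encodes a small membrane-spanning subunit of photosystem II. It was listed at 0 in WT replicate 1, at 9726 FPKM in WT replicate 2 and at 31899 and 24817 FPKM in the *ldl1 ldl2* libraries. Both mutant libraries lay above both WT libraries, of which 1 was listed at 0. Among all loci it ranked 6 in WT replicate 2, 1 in *ldl1 ldl2* replicate 1 and 2 in *ldl1 ldl2* replicate 2. It alone made up 42.6%, 72.3% and 53.6% of the summed chloroplast FPKM in those 3 libraries. With a value of 0 in 1 library, no fold change is given.

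Without *psbM*, the chloroplast loci took 2.81% and 1.301% of the summed FPKM of all loci in the WT libraries and 1.17% and 2.04% in the *ldl1 ldl2* libraries. The genotypes overlapped, and the mutant mean lay 0.448 percentage points lower (exact permutation test, two-sided, p = 0.667, n = 2 per genotype). Between replicate numbers the mean was 0.318 percentage points lower in number 2 (exact permutation test, two-sided, p = 1.00). A test of 2 against 2 libraries cannot give a p below 0.33. Without WT replicate 1 the genotype difference became 0.305 percentage points, and the difference between numbers became 0.500 without WT replicate 1 and 0.0522 without WT replicate 2. With *psbM* included, the shares became 2.81%, 2.27%, 4.23% and 4.39%, and the mutant mean lay 1.77 percentage points higher, the groups no longer overlapping (exact permutation test, two-sided, p = 0.33). The sign of the genotype difference in the chloroplast share thus turned with *psbM*, as it did without WT replicate 1. Only that library held the rRNA copies ATCG00960 and ATCG01170 above 0, at 10646 FPKM each. Its summed chloroplast FPKM was 29426, and the share without this pair was not computed.

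**Figure D1:**
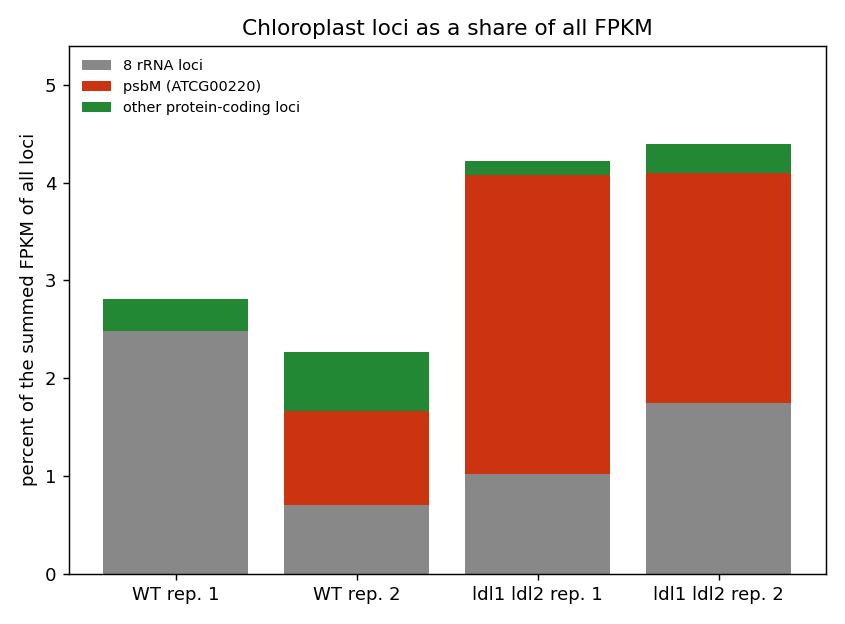
Summed FPKM of the chloroplast loci as a percent of the summed FPKM of all loci (y axis) in each of the 4 libraries (x axis), divided into the 8 rRNA loci, *psbM* and the other protein-coding loci. Each bar is 1 library, without replicate error; *psbM* is absent from WT replicate 1 and takes 3.06% of all FPKM in *ldl1 ldl2* replicate 1.

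Most of the remaining signal came from the ribosomal RNA loci, which lie in the inverted repeat, a region present in a pair of copies. They summed to 26023, 7071, 10682 and 18400 FPKM, or 88.4%, 53.9%, 87.4% and 85.5% of the chloroplast FPKM without *psbM*. Protein-coding loci over 150 bases in coding length summed to 667, 897, 655 and 771 FPKM. The protein-coding sum was highest in the library where the rRNA sum was lowest, WT replicate 2. In WT replicate 1, ATCG00960 and its copy ATCG01170 gave 10646 FPKM each, and both were listed at 0 elsewhere. The place of WT replicate 2 as lowest in rRNA rests on that pair. The rRNA loci came as 4 pairs with like values, and reads of such copies cannot be assigned to one of them with certainty.

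The pairs of rRNA loci did not vary together. ATCG00970 and its copy ATCG01160 stood at 1985 and 2335 FPKM in WT and at 4925 and 8574 FPKM in *ldl1 ldl2*. Both mutant libraries were above both WT libraries, in replicate number 1 by 1.31 and in number 2 by 1.88 on the log2(FPKM + 1) scale. The fitted log2 fold change was 1.59 (SE 0.44), which did not pass the test over all loci (limma, adjusted p = 1.00, unadjusted p = 0.0191). ATCG00960 and its copy ATCG01170 were at 10646 FPKM in WT replicate 1 and listed at 0 in the other 3 libraries. ATCG00920 stood at 169, 564, 192 and 280 FPKM and ATCG00950 at 212, 636, 224 and 346 FPKM, both highest in WT replicate 2. Ratios of rRNA loci within a library therefore differed between libraries, whatever the scaling between libraries.

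Most of the uneven protein-coding loci with high values were short. A length class could be given to 74 of the 79 protein-coding members (93.7%). Of 11 loci with a coding sequence of up to 150 bases, 5 were listed at 0 in all libraries (*psbF*, *psbL*, *psbT*, *petG* and *rpl36*), and 5 of the 6 members were listed at 0 in at least 1 library. Each of those 6 nevertheless exceeded 100 FPKM in some library. Of 70 longer loci, 2 were listed at 0 throughout, 7 of the 68 members were at 0 in at least 1 library, and 2 members (*psbA* and *rpl32*) exceeded 100 FPKM. The median of the members' mean levels was 410 FPKM in the short class and 5.17 FPKM in the long class. These are descriptions of annotated length, without a test.

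**Figure D2:**
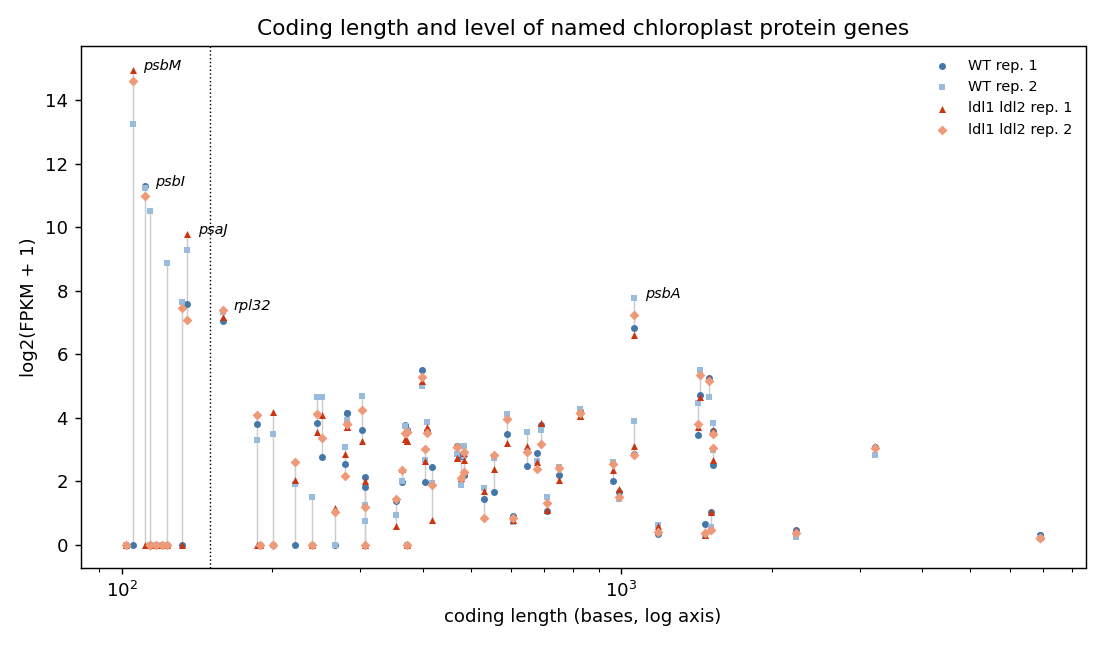
Coding length in bases (x axis, log scale) and log2(FPKM + 1) (y axis) of the chloroplast protein genes identified by name, with 1 point per library and a grey line from the lowest to the highest library. The dotted line marks 150 bases; left of it values run from 0 to 31899 FPKM, whereas on the right the highest value is 218 FPKM for *psbA*.

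The other short members encode small subunits of the photosystems. *psbI* (photosystem II) stood at 2537, 2385, 0 and 2038 FPKM, close in 3 libraries and listed at 0 in *ldl1 ldl2* replicate 1. *psaI* (photosystem I) and *psbJ* (photosystem II) were above 0 only in WT replicate 2, at 1462 and 468 FPKM. *psbN*, whose product helps photosystem II assemble, was listed at 0 in both libraries numbered 1 and stood at 198 and 173 FPKM in those numbered 2. It is transcribed from the strand opposite to *psbT* and *psbH*, and whether the authors' counting used strand is not given in the sources used here. *psaJ* (photosystem I), the only short member above 0 in every library, stood at 190, 619, 877 and 135 FPKM. The genotype difference of *psaJ* turned sign, being 2.20 in replicate number 1 and -2.19 in number 2 on the log2(FPKM + 1) scale.

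Among 61 long protein-coding members above 0 in every library, the highest library exceeded the lowest by a median of 1.72-fold, from 1.16-fold to 6.42-fold, and 25 members differed at least 2-fold. Photosynthesis genes held the highest of these levels together with *rpl32*, which encodes a protein of the large ribosomal subunit and stood at 130, 158, 144 and 168 FPKM. *psbA*, for the D1 reaction centre protein of photosystem II, was at 112, 218, 96.7 and 149 FPKM. *rbcL*, for the large subunit of Rubisco, was at 25.3, 44.3, 24.3 and 39.7 FPKM. Both were higher in each library numbered 2 than in either numbered 1.

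**Figure D3:**
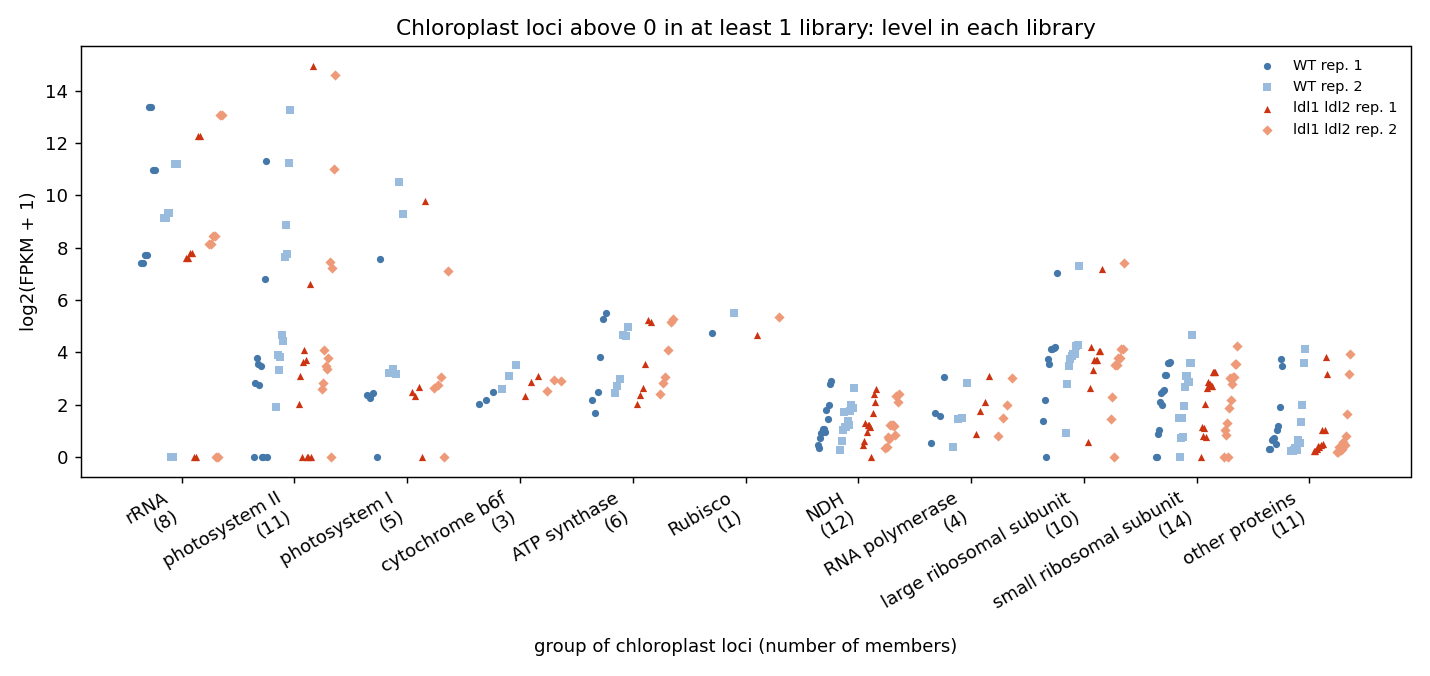
Level of each member (y axis, log2(FPKM + 1)) in each library, by the complex or function of its product (x axis, number of members in parentheses). Each point is 1 locus in 1 library; the 2 Ycf15 loci, which are in no group, are not drawn. Values of 0 occur in the rRNA, photosystem II, photosystem I, NDH and ribosomal protein groups, whereas the 6 ATP synthase loci stay between 2.16 and 44.3 FPKM.

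The ATP synthase genes differed from each other. *atpB* and *atpE*, the β and ε subunits, overlap in the genome and stood at 37.3, 23.8, 36.8 and 34.5 FPKM and at 44.3, 30.6, 34.8 and 37.4 FPKM. Both were lowest in WT replicate 2, the library in which *psbA* and *rbcL* were highest. *rbcL* and *atpB* are divergently transcribed neighbours, and the ratio of *rbcL* to *atpB* was 0.680, 1.86, 0.660 and 1.15. This ratio does not depend on how libraries are scaled to each other, and it was above 1 in both libraries numbered 2 and below 1 in both numbered 1. The pair was chosen after its values were seen, so the ratio carries no test.

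The genotype difference of 4 of the 5 photosystem I and all 3 cytochrome b6f members turned sign between the replicate numbers. So did that of 48.8% of all loci tested. All 5 photosystem I members and all 3 cytochrome b6f members were higher in WT replicate 2 than in WT replicate 1, against 60.3% of all loci. In replicate number 1, 4 of the 5 photosystem I and all 3 cytochrome b6f members were higher in *ldl1 ldl2* than in WT, whereas in number 2 all 8 were lower. Of all loci, 51.0% were higher in *ldl1 ldl2* in number 1 and 37.5% in number 2. ATCG00340 and ATCG00350, both described in the files as PsaA/PsaB reaction centre proteins of photosystem I, stood at 3.82, 9.29, 4.04 and 5.79 FPKM and at 4.22, 8.16, 4.57 and 5.17 FPKM. *petB*, for cytochrome b6, was at 4.58, 10.6, 7.53 and 6.52 FPKM, and *petD*, for subunit IV of the same complex, at 3.55, 7.57, 6.32 and 6.59 FPKM. *psbD* and *psbC*, the D2 and CP43 proteins of photosystem II, overlap and were at 6.19, 13.9, 7.55 and 6.12 FPKM and at 10.01, 20.8, 11.9 and 12.9 FPKM.

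The NDH complex, which carries electrons around photosystem I, was low, with group medians of 1.08, 1.49, 1.302 and 1.304 FPKM over its 12 members. Of these, 4 were higher and 2 lower in *ldl1 ldl2* in both replicate numbers, against 19.8% and 31% of all loci tested. The 4 include the copies ATCG00890 and ATCG01250, with equal values, and *ndhF*, at a mean of 0.307 FPKM. Of the 12 members, 3 had a mean below 1 FPKM, whereas the shares of all loci cover only loci that reached this level. *ndhJ* stood at 5.98, 2.66, 3.23 and 3.25 FPKM and *ndhK* at 6.41, 5.22, 5.05 and 4.24 FPKM. *ndhJ* was highest in WT replicate 1 and close in the other libraries. *ndhK* was lower in both mutant libraries than in both WT libraries, as were 13.3% of all loci tested.

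All 4 loci for the core subunits of the chloroplast RNA polymerase were higher in *ldl1 ldl2* than in WT in both replicate numbers, and all 4 were lower in replicate 2 than in replicate 1 in both genotypes, as were 19.8% and 30.6% of all loci tested. *rpoB* was at 7.34, 6.03, 7.51 and 7.16 FPKM and *rpoA* at 2.18, 1.72, 2.38 and 1.83 FPKM. ATCG00180 and ATCG00170, described in the files only as RNA polymerase proteins, were at 1.96, 1.78, 3.31 and 2.91 FPKM and at 0.455, 0.293, 0.818 and 0.760 FPKM. For both, the mutant libraries lay above both WT libraries, as for 8.25% of all loci tested, whereas the *rpoB* and *rpoA* libraries overlapped. No test was passed by the 3 of these loci with a mean of at least 1 FPKM, ATCG00180 having a log2 fold change of 0.52 (SE 0.27; limma, adjusted p = 1.00) on the log2(FPKM + 1) scale, which understates the change of low loci. ATCG00170 was below that level and was not tested.

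Genes for ribosomal proteins moved little. *rpl2*, in the inverted repeat, was at 17.4, 18.2, 15.7 and 16.6 FPKM in the copy ATCG01310, and *rps12* at 11.2, 10.9, 8.57 and 10.7 FPKM. *rps14*, co-transcribed with the photosystem I genes, stood at 11.2, 24.6, 8.58 and 17.8 FPKM, higher in both libraries numbered 2. *rps18* went the other way, at 3.33, 0.681, 3.02 and 0 FPKM. Of 11 loci for other proteins, among them *clpP* (a protease subunit) and *cemA* (an envelope membrane protein), 7 were lower in *ldl1 ldl2* in both replicate numbers and 0 were higher, against 31% and 19.8% of all loci tested. These 7 include both copies of *ycf2*, with equal values, and only *clpP* and ATCG00520 of them had a mean of at least 1 FPKM. Of the 11 loci, 8 lay below that level, whereas the shares of all loci cover only loci that reached it. *clpP* stood at 10.3, 16.4, 8.09 and 14.5 FPKM and *cemA* at 12.5, 11.1, 13.3 and 8.02 FPKM.

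Tests were fitted over all 16905 loci with a mean of at least 1 FPKM, 70 of them chloroplast members. The other 17 members, 8 of them loci for other proteins, were below this level, and *psaI*, *psbJ*, ATCG00960 and ATCG01170 reached it through a single library. Between genotypes limma called 0 of 16905 loci (0%) at an adjusted p under 0.05, with 394 loci at an unadjusted p under 0.05, and accordingly 0 of the 70 members. Unadjusted, 2 of the 70 lay under 0.05, the rRNA copies ATCG00970 and ATCG01160. *psbA* had a log2 fold change of -0.37 (SE 0.47) and *rbcL* one of -0.11 (SE 0.43), on the log2(FPKM + 1) scale.

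In both numbers 14 of 70 members were higher in *ldl1 ldl2*, against 19.8% of all loci, and 19 were lower, against 31% of all loci. The members' shares were 20% and 27.1%. At least 2-fold higher in both numbers were 3 members, *psbM* and the copies ATCG00970 and ATCG01160, against 1.4% of all loci, and 0 were at least 2-fold lower, against 0.148%. The *psbM* value in number 1 rests on a WT library listed at 0. The 2 mutant libraries lay above both WT libraries for 8 members (8.25% of all loci) and below them for 12 (13.3% of all loci). The members' median log2 ratio without *psbM* was 0.06 in number 1 and -0.17 in number 2, and the fitted median was -0.13, against -0.04 over all loci.

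**Figure D4:**
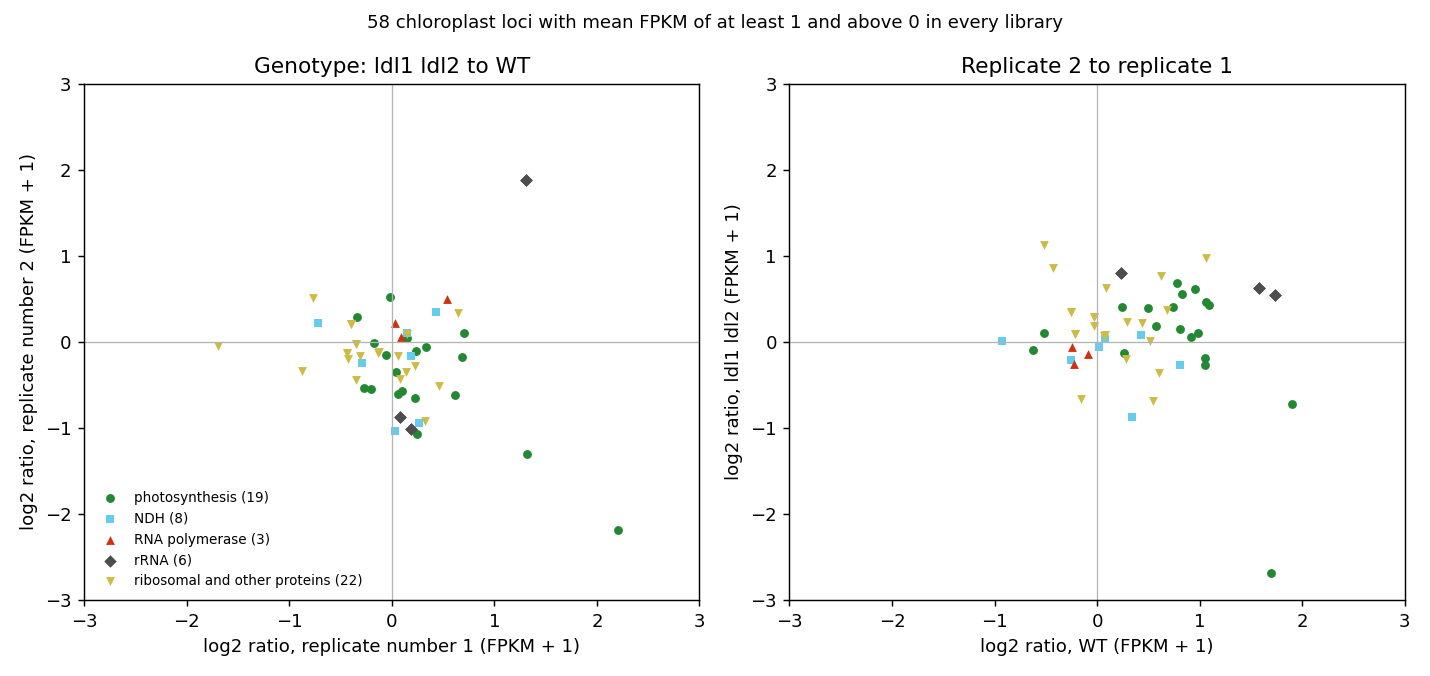
Log2 ratios of FPKM + 1 for the 58 members with a mean of at least 1 FPKM and above 0 in every library. Left, *ldl1 ldl2* to WT in replicate number 1 (x axis) and number 2 (y axis); right, replicate 2 to replicate 1 in WT (x axis) and *ldl1 ldl2* (y axis). Each point is 1 locus, and 12 are higher and 16 lower in *ldl1 ldl2* in both numbers, whereas 30 are higher and 6 lower in replicate 2 in both genotypes.

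More loci were called between replicate numbers than between genotypes, but the genotype fit held no term for replicate number. The counts of the fits are therefore not on like terms. With genotype as a term, limma called 4044 of 16905 loci (23.9%) between the numbers at an adjusted p under 0.05, of which 2238 were higher (13.2%) and 1806 lower (10.7%) in number 2. Of the 70 members, 18 were called (25.7%), 15 higher and 3 lower. Of the 18 called members, 9 were listed at 0 in at least 1 library, among them those that entered the test through 1 library or 1 replicate number only, so the share of 25.7% cannot be read as a result about the members. Among members above 0 in every library, 9 of 58 were called (15.5%), against 23.4% of all loci above 0 in every library. Scaling each library by its median over nuclear loci left 3 members called, *rps14*, *rps18* and *psbN*. The count over all loci under that scaling is not given here, so the fall cannot be read as a result about the members.

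The 9 called members above 0 in every library were all higher in replicate number 2 and counted 7 once copies were merged. None of the 9 stayed called without the filter or with genotype left out of the fit. *rps14* had a log2 fold change of 1.02 (SE 0.24; limma, adjusted p = 0.00796), *psbA* one of 0.79 (SE 0.25; adjusted p = 0.0390) and *rbcL* one of 0.73 (SE 0.24; adjusted p = 0.0434). *atpF*, a stalk subunit of ATP synthase, and ATCG00340 were called at 0.76 each (limma, adjusted p = 0.0499 and 0.0496). Both calls were also lost with totals without ATCG00220, and that of *atpF* with a pseudocount of 0.1. The rRNA loci ATCG00920 and ATCG00950 were called at 1.14 and 1.10, their copies likewise. The calls of the members listed at 0 somewhere, *psbN* and *rps18* among them, rest on those zeros and the pseudocount and are given no p, and *psbI* and *psbM* were called although the genotypes had opposite signs.

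In both genotypes 32 of the 70 members were higher in replicate 2, against 47.2% of all loci, and 7 were lower, against 30.6% of all loci. The members' shares were 45.7% and 10%. The numbers did not overlap for 24 members higher in replicate 2 (40.6% of all loci) and for 5 lower (24.5% of all loci). At least 2-fold higher in both genotypes was 1 member, *psbN* (5.02% of all loci), and at least 2-fold lower was 1, *rps18* (4.34% of all loci). WT replicate 2 held the highest value for 34 members (48.6%), against 43.4% of all loci. The median log2 ratio of replicate 2 to replicate 1 was 0.29 in WT and 0.11 in *ldl1 ldl2* without *psbM*, against 0.20 and 0.07 over all loci. The fitted median was 0.27, against 0.14 over all loci, so about 0.14 of it was shared by the whole library.

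The nuclear genes whose products act on the chloroplast genome were read from the same fits. For genotype, 0 of the 32 tested genes of 4 such lists were called by limma, 0 of them reached an unadjusted p under 0.05, and the call rate over all loci was 0%. *RPOTp*, the phage-type polymerase of the chloroplast, stood at 6.14, 4.45, 3.02 and 1.59 FPKM. Both mutant libraries were below both WT libraries, with a log2 fold change of -0.95 (SE 0.36; limma, adjusted p = 1.00, unadjusted p = 0.0516). Of the 12 proteins associated with the chloroplast RNA polymerase, 8 were lower in *ldl1 ldl2* in both replicate numbers and 0 were higher, against 31% and 19.8% of all loci.

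Between replicate numbers, 2 of the 6 sigma factors were called. *SIG5*, which directs transcription from a light-responsive *psbD* promoter, stood at 48.5, 8.53, 16.8 and 8.28 FPKM and was lower in number 2 (log2 fold change -1.66, SE 0.31; limma, adjusted p = 0.00208). *SIG4* stood at 27.1, 66.3, 27.5 and 50.3 FPKM and was higher (log2 fold change 1.05, SE 0.25; limma, adjusted p = 0.00862). Among the 12 polymerase-associated proteins, *PTAC6* and *PTAC3* were higher and *TRXZ* and *FLN1* lower in number 2. Of 13 factors of chloroplast RNA processing and stability, *RNJ* (ribonuclease J) and *PPR10* were higher, and *CSP41B* and *HCF145* lower. Together 10 of the 32 genes were called, against 23.9% of all loci. The chloroplast loci and these nuclear genes come from the same 4 libraries, so relations between them were not tested.

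**Figure D5:**
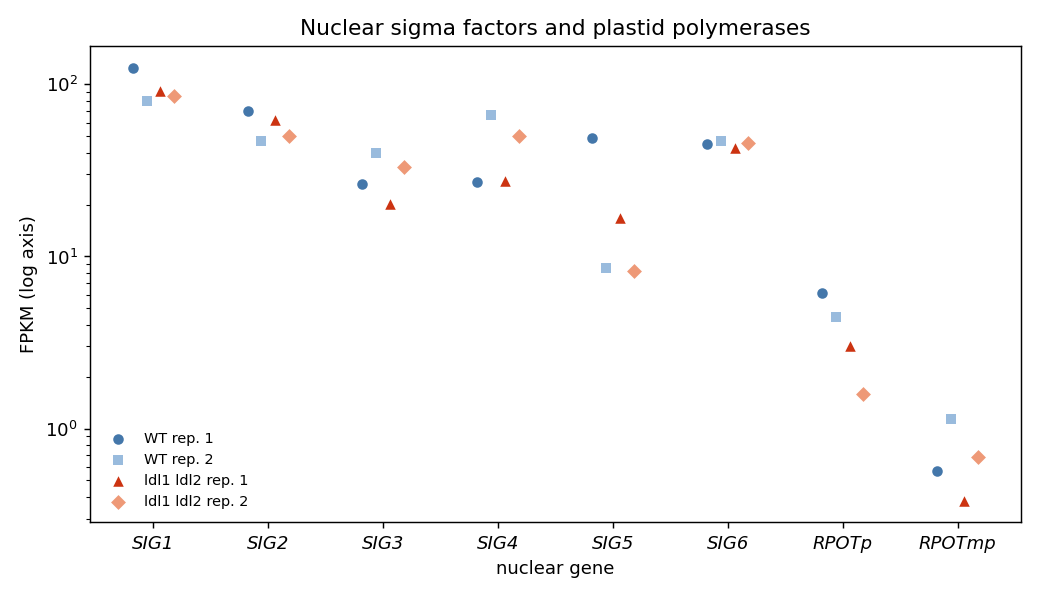
FPKM (y axis, log scale) of the 6 nuclear sigma factor genes and of the nuclear genes for the phage-type polymerases *RPOTp* and *RPOTmp* (x axis), with 1 point per library. *SIG5* is highest in WT replicate 1 at 48.5 FPKM, *SIG4* is higher in both libraries numbered 2, and *RPOTp* is lower in both *ldl1 ldl2* libraries.

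Mitochondrial loci, whose transcripts likewise lack stable poly(A) tails, were compared as the most similar set. Of 146 such loci 89 were above 0 in at least 1 library and 20 had a mean of at least 1 FPKM. They summed to 1963, 88.8, 93.6 and 790 FPKM. Their order over the libraries, with WT replicate 1 and *ldl1 ldl2* replicate 2 above the rest, was that of the summed chloroplast rRNA. It was not that of the long chloroplast protein genes. The match with rRNA rests on ATCG00960 and ATCG01170, at 10646 FPKM each in WT replicate 1 and listed at 0 elsewhere. The median log2 fold change of replicate 2 to replicate 1 was -0.43 for the mitochondrial loci and 0.27 for the chloroplast members. The difference between the organelles was not tested.

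The coding sequences were searched for runs of A, since the kit selects RNA on poly(A). Among 57 single-copy chloroplast genes identified by name, AT content ran from 54.9% to 70.6%. The run AAAAAAAA, searched on the coding strand only, was present in 10 of the 57 (17.5%), none of them up to 150 bases long. Among the 46 genes over 150 bases, the median level was 3.13 FPKM for the 10 with the run and 5.62 FPKM for the 36 without. The 10 genes were also longer, with a median coding length of 1229 bases against 480. A match describes the sequence alone and was not tested as a priming site.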

How the data were processed

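The 4 leaf libraries comprised 2 of WT and 2 of *ldl1 ldl2* plants. The deposited values are FPKM, 1 table per library, which the authors made from reads of a stranded mRNA kit with TopHat2, Bowtie2 and Cufflinks on the TAIR10 gene models. Apart from Trimmomatic 0.33, named in the submitters' notes, tool versions are not given in the sources used. FPKM divides by gene length and by mapped fragments, so the same number of fragments gives a higher value on a shorter gene. The values do not show read depth, so the precision of a low value is unknown, and a listed 0 can be a failed estimate.

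Loci averaging 1 FPKM or more were tested on log2(FPKM + 1). The test was that of limma (version 3.58.1, under R 4.3.3), two-sided, with its mean-variance trend and Benjamini-Hochberg adjustment over all loci at 0.05. The genotype fit had no further term and the replicate number fit had genotype as a term. The fits were run on simulated data, in which the genotype case held no replicate difference. How many true differences the genotype fit would find in these libraries was therefore not tested. P-values measure only the spread between these libraries. Shares were compared with an exact permutation test. Alternatives were another pseudocount (0.1), no filter, median scaling over nuclear loci, totals without ATCG00220, each library left out, a replicate block, genotype left out of the replicate number fit and other definitions of the share. Counts over members above 0 in all libraries, or with copies merged, were added after seeing the data.

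Gene names follow the file descriptions, matched to RefSeq by name, and 61 members were named so. An exception is ATCG00430, described in the files as a photosystem II protein G, which was named *ndhK* and placed in the NDH group. Others are called by their identifier. Copies were taken as like when within 2% in every library (8 pairs with equal values and 3 further pairs). Members named are *psbM*, the 8 others with the highest mean FPKM, the 2 highest of each group, the 3 largest and 3 lowest fold changes of each fit with like signs, and members listed at 0 in 1 library and above 100 FPKM in another. One member that this rule names is not reported here. Further names were chosen after their values were seen. Members, groups and lists were chosen with earlier results of these data known.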

Additional observations from a re-analysis of the deposited data

How the results depend on the processing

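Between genotypes, no locus was called with a pseudocount of 0.1, no filter, median scaling or totals without ATCG00220. Leaving out 1 library gave 0 to 3 loci and 0 to 1 members, the member being *psbI* without *ldl1 ldl2* replicate 2, and a median from -0.25 to 0.076. A replicate block gave 348 loci and 2 members, ATCG00970 and ATCG01160 (limma, adjusted p = 0.0067). The correlation of the genotypes' replicate differences was 0.726 over 16905 loci and 0.087 over 69 members, but the sources do not say that a number marks a shared batch, and the numbers were not treated as pairs.

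Between replicate numbers, 1685 loci and 2 members were called without a filter, and 1981 and 2 with genotype left out of the fit. Median scaling left 3 members called, the count over all loci not being given here. Among members above 0 in every library, 9 were called. *psbA*, *rbcL*, ATCG00920 and ATCG00950 lost their calls with no filter, with median scaling and with genotype left out, and *rps14* with no filter (limma, adjusted p = 0.0553) and with genotype left out (0.0546). The median became 0.43 with a pseudocount of 0.1, 0.12 with median scaling, and 0.11 to 0.29 with 1 library left out. These fits then have no residual degrees of freedom and give values only.

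The genotype difference in share was 1.77 with ATCG00220, -0.240 for protein-coding loci and -1.20 to 0.31 with 1 library left out. That between numbers was 0.212 for protein-coding loci and -1.14 to 0.50 with 1 library left out.

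Of 21 fold changes per fit, 15 turned sign between genotypes and 5 between numbers when 1 library was left out. Between genotypes the ranges were -0.85 to 0.10 (*psbA*), -0.00028 to 0.25 (*rpoB*), -0.93 to 0.14 (*rps14*), -0.72 to 0.21 (*ndhJ*), -0.29 to 0.23 (*atpE*), -0.062 to 0.56 (*atpB*), -0.50 to 0.29 (*rbcL*), -0.50 to 0.16 (*cemA*), -1.34 to 1.35 (*psaJ*), -0.62 to 0.15 (*clpP*), -0.53 to 0.52 (*petB*), -0.20 to 0.71 (*petD*), -1.28 to 0.46 (ATCG00920), -1.19 to 0.39 (ATCG00950) and -0.027 to 0.26 (*rpl32*). Between numbers they were -0.93 to 0.0072 (*ndhJ*), -0.52 to 0.10 (*atpE*), -2.69 to 1.70 (*psaJ*), -0.18 to 1.05 (*petB*) and -0.027 to 0.29 (*rps12*). The genotype value of *petB* also turned to 0.0082 with a pseudocount of 0.1 and to 0.00068 with median scaling, which turned *rps12* to -0.017 and *rpl2* to -0.081 between numbers. The causes were not tested. Read depth is unknown, which limits every low value.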
